A study of Mus musculus with 6 samples.

Results

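The subunits of the respiratory chain and of ATP synthase were followed in RNA sequencing of mouse bone marrow mesenchymal stem cells (BMSCs). Members were taken by gene symbol. They were the names beginning with Nduf followed by a, b, c, s or v, with Uqcr, with Cox4 to Cox8 or with Atp5, the genes Sdha, Sdhb, Sdhc and Sdhd, and the mitochondrial names beginning with mt-Nd, mt-Co, mt-Atp or mt-Cytb. The rule found 105 of 25722 listed genes, 93 encoded in the nucleus and 12 in mitochondrial DNA. The rule uses symbols alone, though it was set with earlier results of these data known. The symbols also brought in 11 assembly or related factors (Ndufaf1 to Ndufaf8, Cox7a2l, Ndufa4l2 and Atp5s), which were counted apart from the subunits. Another 3 genes (Ndufb4c, Ndufb1-ps and Ndufa11b) were set aside as paralogs or pseudogenes by symbol alone. Whether each of them encodes a subunit was not examined. The remaining nuclear members were 36 subunits of complex I, 4 of complex II, 8 of complex III, 15 of complex IV and 16 of ATP synthase. The mitochondrial members were 6 subunits of complex I, 1 of complex III, 3 of complex IV and 2 of ATP synthase. The gene mt-Nd1 and the mitochondrial ribosomal RNAs were not analysed here.

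All 6 libraries came from C57BL/6 wild-type BMSCs cultured at 5% O2 in a low-glucose medium with fetal bovine serum and a ROCK inhibitor. The 3 control libraries received the solvent DMSO and the 3 RA libraries received 1 µM all-trans retinoic acid (ATRA) for 48 h, as labelled; the methods of the study give a lower dose and a shorter time, so the dose behind these libraries is uncertain. The labels speak of 2 biological replicates where 3 libraries per group are listed. The paper speaks of independent experiments for a group of assays that includes this one, but no source ties each library to an animal or culture of its own. The p-values therefore measure the spread between these libraries, which may be technical in part. The comparison asks which respiratory genes differ between RA-treated and control BMSCs.

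Libraries held 14737636 to 18511905 counts. The cells were labelled BM-MSCs, and both mesenchymal and macrophage markers were measured in every library. The summed level of 14 macrophage markers, among them Adgre1, Csf1r and Lyz2, was 16591 to 19203 CPM (counts scaled to a common library size by the trimmed mean of M values) against 1738 to 4551 for 14 mesenchymal markers. Of the defining mesenchymal surface markers, Eng had 472 to 1125 counts and Pdgfrb 861 to 2516, while Thy1 had 0 to 7 and Nt5e 2 to 21. Lymphoid markers summed to 0 to 0.16 CPM. In an earlier principal component analysis of these data the libraries fell into sets that cross the treatment, one of control 2, RA 1 and RA 2 and one of control 1, control 3 and RA 3. All 20 cell division genes on a list were higher in every library of the first set, beside 23.4% of all genes. Their summed level was 1217 to 2052 CPM against 448 to 499.5 CPM. Because the sets were drawn from these same data, this describes them and is no separate test. In such bulk samples fewer cells of a type and less RNA per cell cannot be told apart.

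The respiratory chain moves electrons from NADH through complex I, and from succinate through complex II, to ubiquinone, complex III, cytochrome c and complex IV, where oxygen is reduced. Complexes I, III and IV pump protons across the inner mitochondrial membrane, and ATP synthase uses the gradient to make ATP. Mitochondrial DNA encodes a few core subunits, read from polycistronic transcripts made by the polymerase Polrmt, while complex II and the remaining subunits are encoded in the nucleus and imported. Stem cells of the marrow are commonly described as relying more on glycolysis than on this chain.

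Some mitochondrial genes share bases with a neighbour or with a nuclear copy, and the 3 sets of bases below show how little separates them. The 43 bases in capitals at the end of mt-Atp8 are also the first bases of mt-Atp6 (GRCm38, chrM:7766-7969, plus strand, GENCODE). Both genes encode subunits of the membrane part of ATP synthase.
mt-Atp8: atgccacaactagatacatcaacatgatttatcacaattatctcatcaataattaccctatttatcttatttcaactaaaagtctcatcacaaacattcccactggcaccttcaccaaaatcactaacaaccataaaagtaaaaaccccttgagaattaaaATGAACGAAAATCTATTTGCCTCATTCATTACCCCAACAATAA
A read within those 43 bases could be given to either gene.

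A block on chromosome 1, between 24612407 and 24616197 on the minus strand, carries 6 annotated unprocessed pseudogenes that are copies of mitochondrial genes. Gm10925 matched mt-Atp6 over 678 bases with 0 mismatches, Gm28661 matched mt-Co2 over 681, Gm28437 matched mt-Co3 over 783 and Gm10222 matched mt-Nd4l over 294, each with 0 mismatches. Gm29216 differed from mt-Co1, the catalytic subunit of complex IV, at 1 of 483 aligned bases, A1066T counted from the first base of mt-Co1. Gm28438 differed from mt-Nd3, a membrane subunit of complex I, at 1 of 345, T3C counted from the first base of mt-Nd3. The windows show those bases in capitals, for mt-Co1 at chrM:6390-6423 and Gm29216 at chr1:24616155-24616188, and for mt-Nd3 at chrM:9459-9491 and Gm28438 at chr1:24613087-24613119.
mt-Co1: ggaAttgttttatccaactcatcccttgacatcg
Gm29216: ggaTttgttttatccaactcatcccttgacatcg
mt-Nd3: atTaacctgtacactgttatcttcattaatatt
Gm28438: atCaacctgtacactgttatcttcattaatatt
A short read that does not cross such a base fits the gene and its copy equally well. How the counting placed such reads is not given in the sources used here.

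Together the nuclear members held 0.587%, 0.629% and 0.573% of the counts of control 1, 2 and 3, and 0.625%, 0.633% and 0.565% of those of RA 1, 2 and 3. The groups overlapped, with means of 0.596% ± 0.029 (SD, n = 3) and 0.608% ± 0.037 (SD, n = 3). Per length, the median nuclear member stood at 25.5 CPM per kilobase of annotated exon, against 5.04 for all 13842 genes tested. Because exon length here joins all annotated transcripts, such levels are approximate.

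In complex I the member of highest level per length was Ndufa2, an accessory subunit, at 69.1 CPM per kilobase, with 38.4 to 43.6 CPM in the control libraries and 37.2 to 40.2 CPM after RA. In complex II it was Sdha, the flavoprotein that oxidises succinate, at 61.2 CPM per kilobase, with 238 to 266 CPM in controls and 245 to 263 CPM after RA. In complex III it was Uqcr10, a small structural subunit, at 62.3 CPM per kilobase, with 34.2 to 36.1 CPM and 31.9 to 44.0 CPM. The groups overlapped for all 3 genes. Among complex IV subunits Cox6a1 led at 299 CPM per kilobase, the highest of all nuclear members. For ATP synthase it was Atp5a1, the alpha subunit of the catalytic head, at 175 CPM per kilobase, with 557 to 586 CPM in controls and 479 to 573 CPM after RA. Its partner Atp5b, the catalytic beta subunit, stood at 142 CPM per kilobase.

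Where a subunit exists in tissue or condition forms, the widely expressed form was the higher in all 6 libraries for the 5 pairs of complex IV subunits and their relatives, but not for the c-ring of ATP synthase once copies were counted. Cox4i1 stood at 159 CPM per kilobase and Cox4i2, its hypoxia-responsive lung form, at 1.13, with 8 to 22 counts per library. Cox6a1 was at 299 CPM per kilobase and the heart and muscle form Cox6a2 at 1.29. Cox6b1 was at 132 and the testis form Cox6b2 at 1.43. These minor forms were counted, but at levels where a few reads decide a ratio. For subunit 7a, Cox7a2 reached 52.7 CPM per kilobase and the muscle form Cox7a1 had counts of 4, 9 and 4 in controls and 3, 8 and 1 after RA, too few to be tested. Ndufa4, a complex IV subunit despite its name, stood at 40.0 CPM per kilobase, and its hypoxia-induced relative Ndufa4l2 at 2.73. Of the 3 genes for the c-ring of ATP synthase, Atp5g3 was at 48.4, Atp5g1 at 11.8 and Atp5g2 at 4.53 CPM per kilobase. That last value is uncertain, since 92.3% of the reads on Atp5g2 and its copies were on the copies, nearly all on Gm10175, a pseudogene identical to it over 645 bases. With those reads added Atp5g2 would stand at 60.1 CPM per kilobase, above Atp5g3 in 4 of 6 libraries, so the order of these c-ring genes is not settled. The genes Cox8b and Cox8c were not analysed here. Besides Cox7a1, Ndufa11b was below the filter, with 2 counts in control 3 and 0 in the other libraries.

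**Figure D1:**
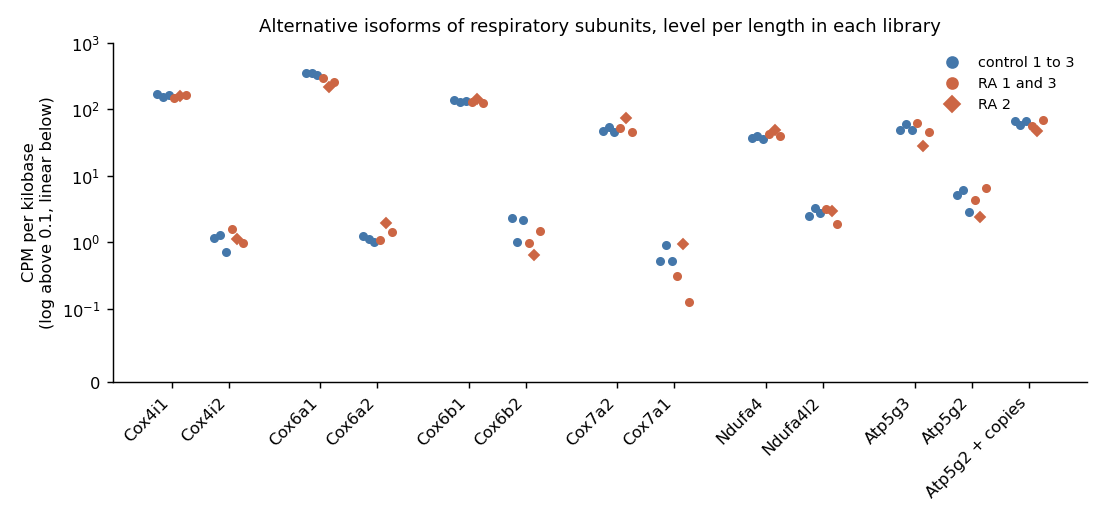
Level per length (CPM per kilobase of annotated exon, log axis above 0.1 and linear below) of paired subunit isoforms in each library, controls in blue, RA in orange, RA 2 as a diamond. In the 5 pairs other than the c-ring genes the common form lies more than 10-fold above the other in every library. Atp5g3 lies above Atp5g2 counted alone, and below Atp5g2 with its copies in 4 of 6 libraries.

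Many of these genes are known targets of the factors NRF1, GABP and YY1. RefSeq promoter windows, 250 bases before to 50 after the start on GRCm38.p6, were found for 75 of the 93 nuclear members. The NRF1 letters GCGCATGC, on either strand, stood in 12 of them (16.0%) and in 3.05% of the windows of all 27025 genes. For YY1, AAGATGGC stood in 11 (14.7%) against 3.19%, and for GABP, CCGGAAGT stood in 5 (6.67%) against 4.31%. The NRF1 letters overlap their own reverse complement in the palindrome GCGCATGCGC, which is in capitals in the 3 stretches shown. They were chosen for holding it, among members that the comparisons below name. The stretches are for Cox6a1 (chr5:115349058-115349157, minus strand), for Ndufaf4 (chr4:24897923-24898022, plus strand) and for Atp5k (chr5:108434400-108434499, minus strand), with the motif starting 162, 113 and 50 bases before the start.
Cox6a1: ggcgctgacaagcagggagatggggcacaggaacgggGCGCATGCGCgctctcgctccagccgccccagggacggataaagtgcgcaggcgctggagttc
Ndufaf4: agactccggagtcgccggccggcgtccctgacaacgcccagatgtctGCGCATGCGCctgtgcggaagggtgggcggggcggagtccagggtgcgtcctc
Atp5k: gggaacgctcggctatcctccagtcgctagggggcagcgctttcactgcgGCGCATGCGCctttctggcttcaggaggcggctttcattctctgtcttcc
A match describes the letters only.

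No respiratory gene was called between RA-treated and control libraries. By edgeR's quasi-likelihood test with Benjamini-Hochberg adjustment over 13842 genes, 0 of the 103 tested members passed an adjusted p under 0.05, while 5 genes (0.0361%) were called higher and 1 (0.00722%) lower in the whole table. At an unadjusted p under 0.05 stood 4 members, Cox6a1, mt-Nd3, mt-Atp6 and mt-Atp8, against 5.25% of all genes. Leaving out 1 library at a time gave 1 (without control 1) to 12 members (without RA 3) at that level, where 2.85% and 14.4% of all genes had such a p, and 0 members were called each time. DESeq2 likewise called 0 members, with 5 at an unadjusted p under 0.05 (5.93% of all genes), where it called 0.722% of all genes higher and 0.289% lower. DESeq2 gave mt-Atp8 no adjusted p and so could not call it. Among members given one, the smallest adjusted p was 0.795 by edgeR and 0.215 by DESeq2. With the library set as a covariate 0 members were called and 4 had an unadjusted p under 0.05, where 0.845% of all genes were called higher, 0.896% lower and 15.1% had such a p. Without RA 2, 0 members were called, beside 1 gene (0.00709%) higher and 0 (0%) lower, and 2.94% of all genes had an unadjusted p under 0.05.

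Nuclear members sat close to 0. Their median log2 fold change was 0.01 over 91 tested, beside -0.02 over all genes, with 48 above and 43 below 0. For 76 of the 91 the fitted change was smaller than 0.25 in size. By complex, the median was 0.01 for complex I, -0.06 for complex II, 0.07 for complex III, 0.00 for complex IV and 0.04 for ATP synthase, and 0.07 for the assembly and related factors. In size all these medians were below 0.077, the SD between replicates of the median over all nuclear members. That SD covers single libraries and the whole list, so it is not an error for the median of a complex. The extremes were Cox6b2 at -0.84 (SE 0.46), whose levels were 0.70 to 2.59 CPM, and Uqcrb at 0.61 (SE 0.28).

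Counting separation instead of p-values, the 3 RA libraries lay all above the 3 controls for 3 nuclear members and all below for 7, where 5.71% and 6.87% of all genes did so. In proportion these 10 members are near that background. The higher ones were Atp5c1, the gamma subunit that turns within ATP synthase, and the complex I assembly factors Ndufaf1 and Ndufaf4. The lower ones were Cox6a1, Atp5d, Atp5e, Ndufb2, Ndufs3, Ndufs7 and Sdhc. With RA 1 and RA 3 alone against the controls, 4 nuclear members were higher and 10 lower, beside 7.38% and 8.41% of all genes.

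Cox6a1, a structural subunit of complex IV, had 245, 248 and 232 CPM in controls and 207, 149 and 179 CPM after RA. All RA values lay below all controls, with a log2 fold change of -0.44 (SE 0.145, unadjusted p = 0.0206, edgeR adjusted p = 0.795). In complex I, Ndufb2 had 18.6, 17.7 and 17.9 CPM in controls and 15.2, 13.3 and 15.6 CPM after RA (log2 fold change -0.29, SE 0.139, adjusted p = 0.795). Sdhc, a membrane anchor of complex II, differed by little, at 87.1, 85.2 and 83.4 CPM against 81.2, 79.1 and 81.3 CPM. In ATP synthase Atp5c1 had 99.2, 107.06 and 106 CPM in controls and 107.12, 117 and 114 CPM after RA (log2 fold change 0.11, SE 0.10, adjusted p = 0.807). Atp5e, the epsilon subunit, had 68.2, 63.0 and 62.8 CPM against 57.0, 41.1 and 57.1 CPM (log2 fold change -0.32, SE 0.155, adjusted p = 0.795, and -0.18 without RA 2). Both are single subunits of the same central stalk, and their fitted changes had opposite signs. The complex I assembly factor Ndufaf4 had 9.95, 13.7 and 12.4 CPM against 15.1, 15.2 and 14.3 CPM (log2 fold change 0.30, SE 0.170, adjusted p = 0.795). Uqcrb, a small subunit at the ubiquinone site of complex III, rested on RA 2. Its levels were 26.1, 32.7 and 31.5 CPM in controls and 40.9, 65.8 and 31.1 CPM after RA, and the groups overlapped.

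**Figure D2:**
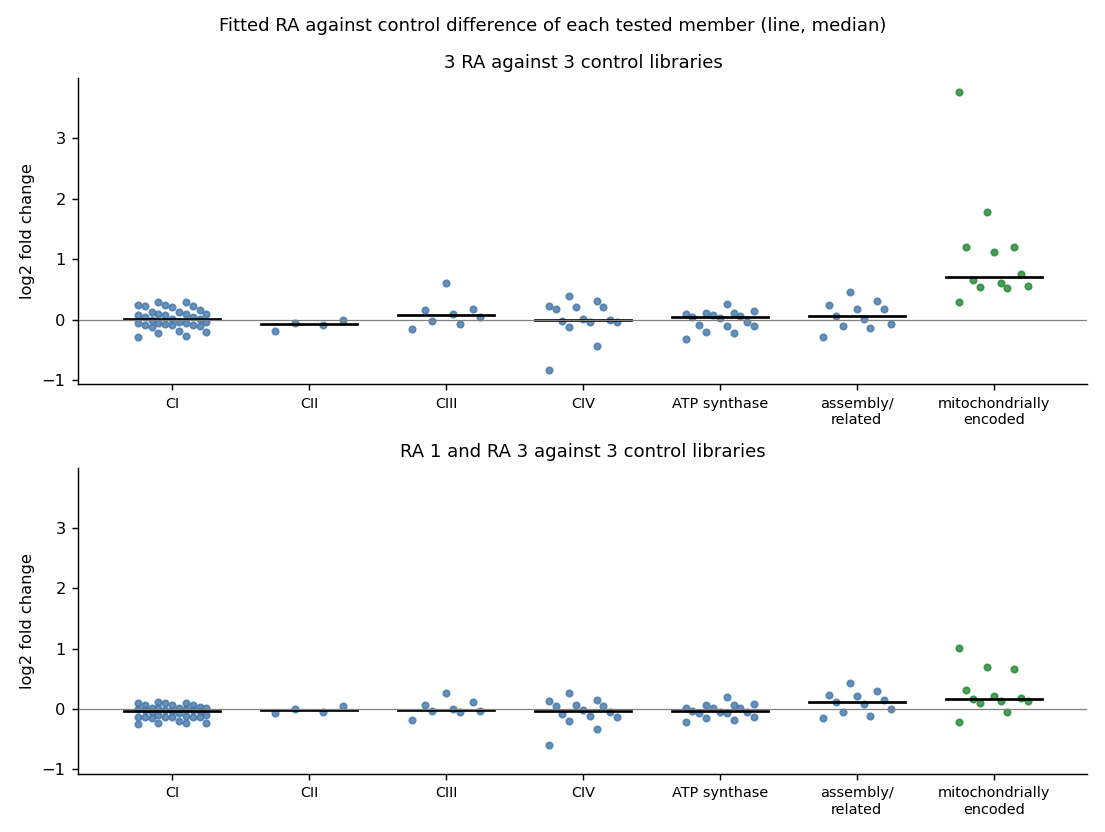
Fitted log2 fold change, RA against control, of each tested member by complex (CI to CIV, complexes I to IV), nuclear in blue and mitochondrially encoded in green, with the median as a line. The upper panel uses all 6 libraries and the lower leaves out RA 2. Nuclear medians lie near 0 in both, and the mitochondrial median is 0.70 in the upper panel and 0.17 in the lower.

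Mitochondrially encoded members showed another picture, and it was set largely by 1 library. Their share of counts was 0.582%, 0.649% and 0.642% in controls 1 to 3 and 0.783%, 1.51% and 0.676% in RA 1 to 3. All RA libraries lay above all controls, by means of 0.991% ± 0.455 against 0.624% ± 0.037 (SD, n = 3), and RA 2 stood far above RA 1 and RA 3. Without RA 2 the RA mean was 0.730%. With mt-Co1 left out the shares were 0.271%, 0.322% and 0.287% in controls and 0.395%, 0.809% and 0.297% after RA, and the groups overlapped, since RA 3 lay below control 2. Per nuclear respiratory count, the mitochondrial members gave 0.991, 1.03 and 1.12 counts in controls and 1.25, 2.39 and 1.20 after RA. No test was run on sums over members.

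**Figure D3:**
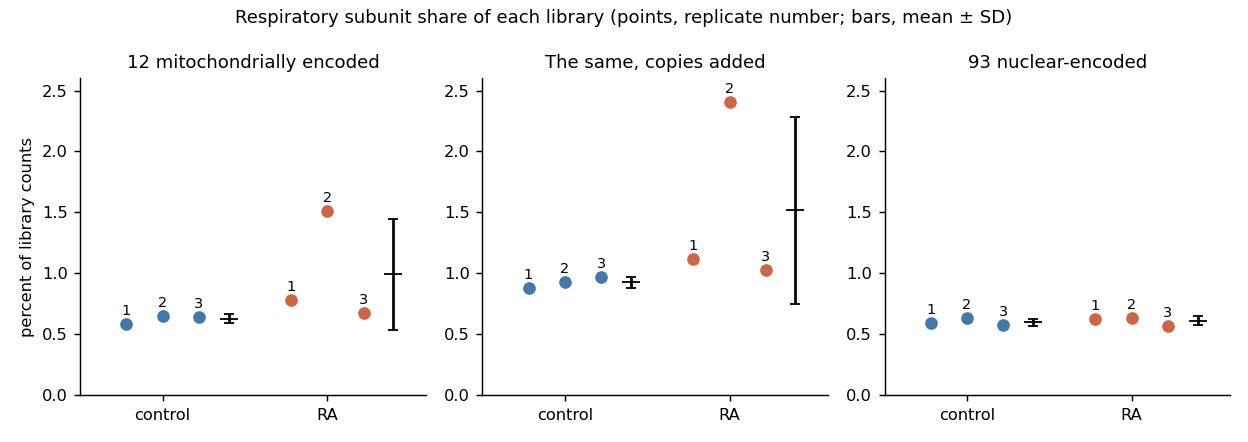
Percent of each library's counts on the 12 mitochondrially encoded members, on the same with their annotated copies, and on the 93 nuclear-encoded members; points carry the replicate number and bars show mean ± SD (n = 3). RA 2 reaches 1.51% in the first panel and 2.40% in the second, while the nuclear share stays between 0.565% and 0.633%.

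The fitted log2 fold change was above 0 for all 12 genes, from 0.29 to 3.76 with a median of 0.70, but without RA 2 the median was 0.17 and mt-Co2 and mt-Nd4l turned to -0.21 and -0.04. With the counts on their annotated copies added, and RA 2 still left out, mt-Co2 and mt-Nd4l were at 0.19 and 0.11. In the fit that adjusts for library set and keeps RA 2 the median was 0.43. No mitochondrial gene was called by edgeR or DESeq2, which gave 3 and 4 of the 12 an unadjusted p under 0.05, beside 5.25% and 5.93% of all genes. DESeq2 gave mt-Atp8 no adjusted p, so it could not call that gene. RA libraries lay above all controls for 5 genes, mt-Co1, mt-Nd3, mt-Nd4, mt-Nd5 and mt-Nd6, beside 5.71% of all genes. As these genes are cut from common transcripts, they are not separate observations, and their count is not an enrichment over that share.

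The complex I genes mt-Nd4 and mt-Nd5, both large proton-pumping subunits, were tight within controls. For mt-Nd4 the levels were 1044, 1121 and 1125 CPM in controls and 1228, 2416 and 1182 CPM after RA. For mt-Nd5 they were 877, 955 and 925 CPM and 1059.9, 1975 and 991 CPM. In both, RA 1 and RA 3 were a little above the controls and RA 2 far above both, with log2 fold changes of 0.55 (SE 0.29) and 0.55 (SE 0.28) and adjusted p = 0.795 for each. The only gene read from the opposite strand, mt-Nd6, had 76.5, 73.7 and 75.1 CPM in controls and 92.8, 333 and 93.9 CPM after RA, a log2 fold change of 1.21 (SE 0.51, adjusted p = 0.795). It overlaps mt-Nd5 by 14 bases, and the strand setting of the counting is not given in the sources used here. Another membrane subunit, mt-Nd2, had 114, 90.4 and 116 CPM against 107, 468 and 122 CPM, so that only RA 2 left the control range by more than a few CPM.

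Complex III has 1 mitochondrial gene, mt-Cytb, the cytochrome b that holds the quinone sites. It had 62, 101 and 60 counts in controls and 113, 173 and 56 after RA, by far the least of the 12. Per length it stood at 5.09 CPM per kilobase, and the 12 genes spanned 521-fold from it to mt-Co1 at 2651. The genes are cut from common transcripts, and yet their counts per length are far apart; what sets this order was not tested. For mt-Co1 the levels were 3208, 3218 and 3675 CPM in controls and 3747, 6864 and 3866 CPM after RA, a log2 fold change of 0.52 (SE 0.27, adjusted p = 0.795). It alone held 46.5% to 56.0% of all mitochondrial member counts.

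The sharpest contrast was mt-Atp8. It had 176, 237 and 174 counts in controls, 341 in RA 1 and 138 in RA 3, but 7459 in RA 2, which is 36.2 times the mean level of the other 5 libraries. The fitted log2 fold change of 3.76 (SE 1.45, unadjusted p = 0.0372, adjusted p = 0.795) became 0.21 without RA 2. Its neighbour mt-Atp6, sharing the 43 bases shown above, had 137, 159.9 and 140.5 CPM in controls and 334, 1032 and 137 CPM after RA. In RA 2 mt-Atp6 was 5.68 times the mean of the others, or 2.81 times with the counts on its copy Gm10925 added. With that copy its levels were 929.7 CPM in control 1, 875 in control 2 and 996 in control 3 against 1104, 2776 and 1032 after RA, without overlap, and its log2 fold change went from 1.78 to 0.81 (0.19 without RA 2). On the genes alone, mt-Nd2 and mt-Nd6 were 4.26 and 4.05 times the mean of the others in RA 2. For mt-Co1 the factor was 1.94 and for mt-Co3 1.28, or 2.18 and 2.10 with copies, so the genes did not rise by a common factor in that library. Over all genes tested the median factor was 0.976, and 3.26% of genes reached 2 or more; of the 91 nuclear members 2 did so.

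Other values of RA 2 also stood apart. Annotated pseudogenes, leaving out copies of mitochondrial genes, took 0.662% of its counts and 0.409% to 0.437% of those of the others. Processed pseudogenes took 0.432% against 0.220% to 0.242%, and the chromosome 1 copies 0.890% against 0.279% to 0.353%. It had 20904 genes with a count, where the others had 19833 to 20531. The part of these in the mitochondrial values was not tested.

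**Figure D4:**
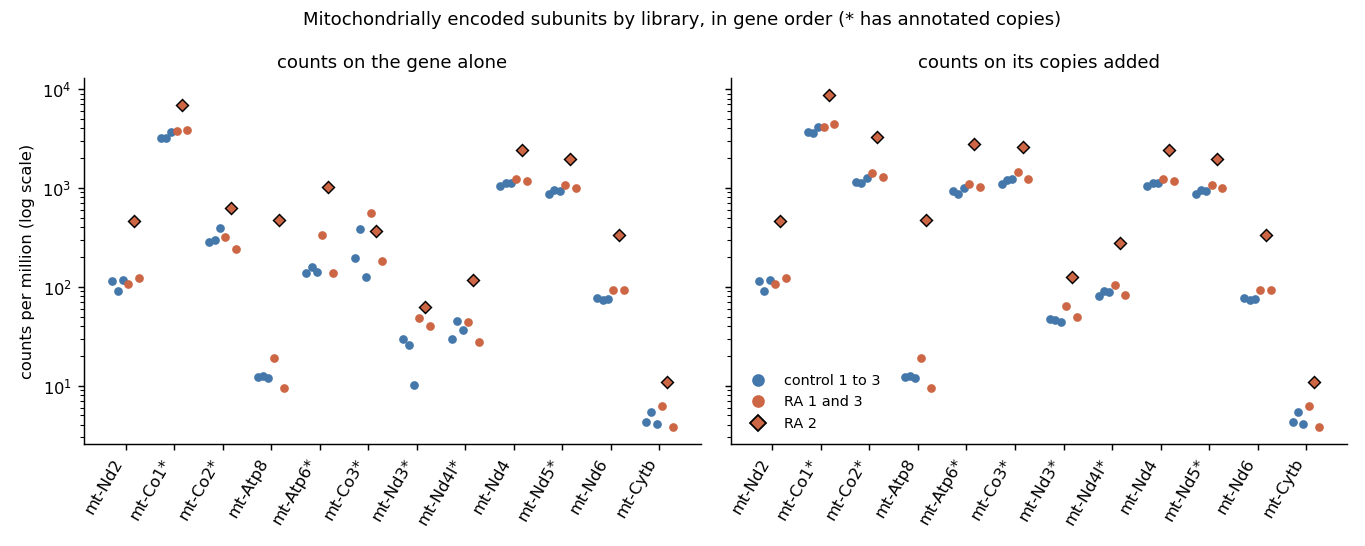
Level of each mitochondrially encoded member in each library (CPM, log axis), in order along mitochondrial DNA; at left the counts on the gene alone, at right with the counts on its annotated copies added. Diamonds are RA 2, and an asterisk marks genes with a copy. The controls of mt-Co3 run from 125 to 385 CPM at left and from 1104 to 1220 CPM at right.

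Adding the copies changed the picture within groups. In mt-Co3, a core subunit of complex IV, the gene alone had 2772, 7240 and 1820 counts in controls and 10025, 5839 and 2683 after RA, with the widest scatter between controls of the 12 genes. Its copy Gm28437 took 12997, 15165 and 15923 counts in controls and 16150, 35403 and 15537 after RA. Summed, the levels were 1104, 1192 and 1220 CPM in controls and 1455, 2615 and 1243 CPM after RA, and the coefficient of variation of the controls fell from 57.3% to 5.14%.

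Of the 7 genes with a copy, the coefficient of variation of the controls was lower with copies in 6, though for mt-Nd5 only from 4.251% to 4.247%. In mt-Co1, the most abundant, it rose from 7.93% to 8.44%. For mt-Nd3 it fell from 47.6% to 3.08%. Alone it had 29.8, 25.9 and 10.1 CPM in controls and 48.4, 62.8 and 40.3 CPM after RA, and with Gm28438 it had 47.0, 46.3 and 44.3 CPM and 64.6, 127 and 49.5 CPM. Its log2 fold change, 1.20 alone (SE 0.40, unadjusted p = 0.0201, adjusted p = 0.795) and 1.02 without RA 2, was 0.81 with the copy and 0.32 with the copy and without RA 2. For mt-Co2, which carries the copper site that takes electrons from cytochrome c, the levels alone were 282, 296 and 394 CPM and 317, 629 and 244 CPM. With its copies they became 1153, 1123 and 1273 CPM in controls and 1409, 3264 and 1281 CPM after RA, which no longer overlapped. For mt-Nd4l they went from 29.6, 45.3 and 36.9 CPM and 44.5, 116 and 27.8 CPM to 81.2, 91.2 and 87.7 CPM and 104, 277 and 82.5 CPM, and still overlapped.

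The copies held 78.5% of the joint counts for mt-Co3, 77.2% for mt-Co2, 74.6% for mt-Atp6, 58.2% for mt-Nd4l, 42.2% for mt-Nd3 and 13.9% for mt-Co1. By contrast Gm11407 and Gm4076, copies of mt-Nd5 that are 92.3% and 95.2% identical to it, had at most 1 count in any library. With copies added RA lay above all controls for 8 of 12 genes in place of 5, with and without RA 2. Of all genes 5.71% did so with it and 7.38% without it. The 12 genes come from common transcripts in the same 6 libraries, so they are not separate observations. Their count cannot be read as an enrichment over those shares. The median log2 fold change without RA 2 was 0.18, and 0 members were called. Copies were added after these counts had been seen. In RA 2 the factors over the other libraries were 2.05 to 4.26 with copies, apart from mt-Atp8, which has no annotated copy and kept 36.2.

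Between the library sets, whose definition comes from these data, differences are given with no test. The first set, control 2, RA 1 and RA 2, had a nuclear share of 0.629% ± 0.004 and the second 0.575% ± 0.011 (SD, n = 3), without overlap. The median nuclear difference was 0.14 in log2 CPM beside -0.01 for all genes, with 27 members higher in every library of the first set and 8 lower. Of all genes 23.4% and 24.4% separated in those directions. Cell division genes and mitochondrial ribosomal proteins moved the same way, the latter with 36 of 79 tested higher in every library and a median of 0.18. Cell type markers differed between the sets too. Of 12 tested mesenchymal markers 5 were higher in every library of the first set and 0 lower, with a median difference of 0.62, and of 14 macrophage markers 3 were higher and 8 lower, with a median of -0.34. Their summed levels overlapped, at 2301 to 4551 CPM in the first set and 1738 to 2620 in the second for the mesenchymal list and 18059 to 19203 against 16591 to 18833 for the macrophage list. Those of 8 osteoclast markers did not, at 242 to 404 CPM against 174 to 211. Of 5 tested, 2 were higher in every library of the first set and 3 lower. In the first set Mmp9 was the largest part, at 146, 326 and 265 CPM in control 2, RA 1 and RA 2. It had 60.7, 52.3 and 94.2 CPM in control 1, control 3 and RA 3. Acp5, Nfatc1 and Ocstamp were the lower ones. Endothelial sums were lower in the first set without overlap, at 7.02 to 11.7 CPM against 16.2 to 17.3. So were erythroid sums, at 0.190 to 0.479 CPM against 2.25 to 2.66. The part of all these genes in the set difference was not tested.

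By complex, ATP synthase had 7 of 16 members higher in the first set and 0 lower, complex III 4 of 8 and 0, complex I 9 of 36 and 2, and complex IV 3 of 14 and 3. Complex II, whose subunits also serve the citric acid cycle, had 0 higher and 1 lower of 4. Of all genes 23.4% were higher and 24.4% lower in that set. Beside these shares complex IV is near the background in both directions and complex I in the higher one. Complex II has too few members to place. Atp5b had 723, 660.1 and 617 CPM in control 2, RA 1 and RA 2 and 550, 552 and 497 CPM in control 1, control 3 and RA 3. Atp5k, the membrane subunit e of ATP synthase, differed most within that complex, by 0.49 in log2 CPM. Uqcrb led complex III at 0.59, Ndufs6, an accessory subunit of the NADH-oxidising arm, led complex I at 0.38, and Sdhd was the largest of complex II at -0.15. The assembly factor Ndufaf5 was at 6.81, 6.39 and 5.90 CPM in the first set and 3.36, 4.19 and 4.03 in the second.

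Some nuclear members were lower in the first set, 8 of 91 in every library, a smaller share than the 24.4% of all genes. Cox5a, a nuclear subunit on the matrix side of complex IV, had 107, 115 and 125 CPM in control 2, RA 1 and RA 2 and 164, 165 and 187 CPM in control 1, control 3 and RA 3. Cox7a2l, a factor that joins complexes III and IV in supercomplexes, had 103, 110.1 and 121 CPM in the first set and 170.2, 181 and 182 CPM in the second. Their differences were -0.57 and -0.68 in log2 CPM. The largest in complex IV was Cox6b2 at -1.11, from 11 to 21 counts against 24 to 37. Neither Cox5a nor Cox7a2l separated by treatment.

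**Figure D5:**
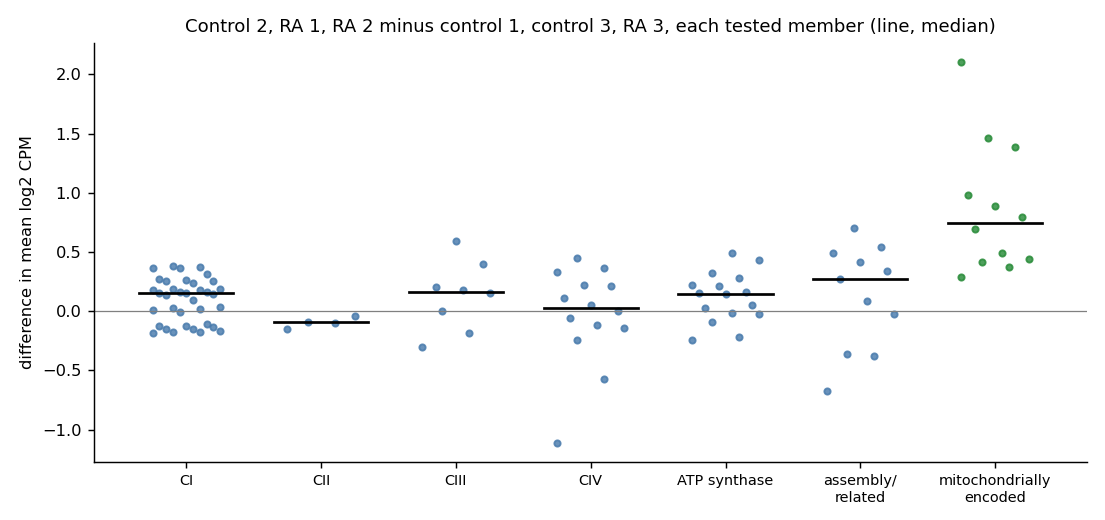
Difference in mean log2 CPM of each tested member between the library sets, control 2, RA 1 and RA 2 minus control 1, control 3 and RA 3, by complex, nuclear in blue and mitochondrially encoded in green, with the median as a line. Complexes I and III and ATP synthase have medians of 0.15, 0.17 and 0.15, complex II of -0.09 and the mitochondrially encoded genes of 0.74. For those last genes RA 2 stood a median of 1.20 above the mean of the other libraries.

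For the mitochondrially encoded members the set difference had a median of 0.74, with 5 of 12 genes higher in every library of the first set, beside 23.4% of all genes. As above, the 12 genes are not separate observations. The set difference lay mainly between the RA libraries, and there largely in RA 2. These members took 0.783% of the counts of RA 1, 1.51% of RA 2 and 0.676% of RA 3. Control 2 differed from the mean of controls 1 and 3 by a median of 0.07, and the mean of RA 1 and RA 2 from RA 3 by 0.89. Nuclear members had an RA minus control difference of 0.06 in the first set and -0.06 in the second. The mitochondrial values were 0.66 in the first set, which holds RA 2, and 0.10 in the second. Each set holds 1 library of one of the groups, so neither value has a replicate check.

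Genes that act around the chain gave no calls either. In the 3 lists with any unadjusted p under 0.05 by edgeR, DESeq2 also called 0 genes, with 2, 1 and 1 at such a p. Of all genes 5.25% had such a p by edgeR and 5.93% by DESeq2, so 1 gene in a list is no more than the background for the lists of 23 and 36 genes, and the genes named below are given as values only. Of 23 listed genes for mitochondrial transcription and RNA maintenance 0 were called and 1 had an unadjusted p under 0.05. This was Fastk, the founding member of a family of mitochondrial RNA regulators, with 55.8, 60.4 and 54.7 CPM in controls and 43.8, 36.1 and 47.1 CPM after RA (log2 fold change -0.43, SE 0.13, adjusted p = 0.782). Ssbp1, which coats single-stranded mitochondrial DNA, was at 14.6, 16.8 and 13.8 CPM against 17.1, 23.8 and 19.5 CPM, without overlap. Fastkd5, needed for processing of some mitochondrial transcripts, had a log2 fold change of 0.43 and overlapping groups.

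Among 9 tested nuclear regulators of respiratory genes 0 were called and 1 had an unadjusted p under 0.05. Gabpa, the DNA-binding subunit of GABP, was at 40.3, 51.4 and 45.5 CPM in controls and 57.0, 64.9 and 52.1 CPM after RA (log2 fold change 0.34, SE 0.14, unadjusted p = 0.0491, adjusted p = 0.795). All RA values lay above the controls. Esrra, an orphan receptor that drives many respiratory genes, was lowest in RA 2 at 57.4 CPM against 111 to 151 in the others. Among 36 other assembly factors 0 were called and 1 had such a p. This was Cox11, a copper chaperone of complex IV, with 10.8, 9.84 and 8.60 CPM in controls and 7.12, 3.80 and 6.34 CPM after RA (log2 fold change -0.76, SE 0.27, unadjusted p = 0.0264, adjusted p = 0.795). Of 12 electron carriers and related genes 0 were called and 0 had an unadjusted p under 0.05 by edgeR and by DESeq2.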

How the data were processed

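The authors deposited raw read counts per gene, 1 table per library, which are not normalized. The labels' processing notes name Bowtie2 2.2.3 and mm10; the counting program, strand setting and treatment of reads with several matches are not given in the sources used here. Groups and replicate numbers came from the labels. All 25722 identifiers matched GENCODE release M21, which gave coordinates, exon lengths and pseudogenes. Copies were pseudogenes with a blastn match to a member's principal transcript of at least 90% identity over at least 100 bases and 50% of the shorter sequence.

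Counts were fitted in R 4.3.3 with edgeR 4.0.16 (TMM scaling, filterByExpr, quasi-likelihood F test, no covariates, Benjamini-Hochberg adjustment, called under 0.05); the filter kept 13842 genes. Log2 CPM used a prior count of 2. The script was tested on simulated data. Alternatives were DESeq2 1.42.0, other scalings, other filters, the replicate block, the library set as a covariate and leaving out each library. Adding copies was chosen after seeing the data. Members, gene lists and library sets were chosen with earlier results of these data known.

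Named genes were all mitochondrially encoded members, per complex the nuclear member of highest level per length, those with the largest non-overlapping changes and the largest set difference, alternative isoforms, up to 3 genes of smallest p per other list, and members not tested. Atp5b, Cox5a, Cox7a2l, Ndufaf4, Ndufaf5, Esrra and a few more were named after their values were seen.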

Additional observations from a re-analysis of the deposited data

How the results depend on the processing

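The 6 genes called in the whole table became 140 with DESeq2, 20 with no filter, 241 with the library set as a covariate, 0 to 6 when 1 library was left out and 1 with copies added and RA 2 left out. In all of these, 0 members were called, though DESeq2 gave mt-Atp8 no adjusted p. The median log2 fold change of mitochondrially encoded members ran from 0.17 (without RA 2) to 1.04 when 1 library was left out, and was 0.18 with copies added and without RA 2. The nuclear median ran from -0.026 (without RA 2) to 0.089 (without RA 3). The log2 fold change of mt-Nd4l ran from -0.043 to 1.10 and that of mt-Co2 from -0.21 to 0.54 when 1 library was left out, both turning below 0 without RA 2. With copies added and without RA 2 they were 0.105 and 0.186. The RA minus control difference in mitochondrial share, 0.366 percentage points, ran from 0.105 (without RA 2) to 0.524 when 1 library was left out. Other scalings and filters gave nuclear medians of 0.005 to 0.055 and mitochondrial medians of 0.70 to 0.75.

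Same-numbered libraries deviated together with correlations of -0.51, 0.34 and 0.57, and 2 of 6 libraries correlated best with their own number. These deviations also hold the difference between the library sets, so whether the numbers pair the libraries cannot be told from them. With the replicate block 4 genes and 0 members were called, with medians of 0.00 for nuclear and 0.60 for mitochondrially encoded members.

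Depth limits mt-Cytb, Cox4i2, Cox6a2 and Cox6b2, whose counts per library were at most 173, 22, 21 and 37.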

Other observations

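The copies of nuclear-encoded members mostly had few counts. Of 20 annotated copies of 12 members, Gm10175, the copy of Atp5g2, held 1178 to 1616 counts per library. For Cox7c, a small subunit of complex IV, copies held 18.6% of the joint counts in RA 2 and 0.735% to 2.04% in the other libraries. Gm12338, identical to Cox7c over 192 bases, had 179 counts in RA 2 and 5 to 17 in the others. For Atp5l, the g subunit of ATP synthase, Gm10221 had 139 counts in RA 2 and 36 to 63 in the others. Whether these counts and the mitochondrial ones of RA 2 share a source was not tested.

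Among 91 tested nuclear members, 40 had their highest level in RA 2 and 20 their lowest, where 22.2% and 25.2% of all genes tested did so.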
